A study of Mus musculus with 8 samples.

Results

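The 10 neutrophil granule protein genes described here were measured in mouse bone marrow cells from a lineage-negative (Lin-), CD127+ sort, a gate for early lymphoid cells. They were chosen by name, 5 as primary granule genes (Mpo, Elane, Prtn3, Ctsg and Ms4a3) and 5 as later genes (S100a8, S100a9, Ngp, Camp and Ltf). All 10 were found by symbol among the 53647 gene identifiers of the count files, and 8 of them were among the 16352 genes that passed a filter on low counts. Ms4a3 and Ltf fell under that filter, so their fold changes below come from a fit without it.

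The study set Trerf1 knockout (KO) marrow, whose genotype label reads Tref1 -/- without the second r, against wild-type (WT) marrow labelled Trerf1 +/+. Trerf1 encodes a zinc finger transcription factor. Each group had 4 RNA sequencing libraries, numbered 1 to 4, made from total RNA with a low-input kit. Strain, age and the way the knockout was made are not given in the sources used here, and the labels do not say whether the 4 libraries of a group came from separate mice, so p-values measure the spread between libraries. No agent or treatment is labelled in either group.

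Neutrophils fill their granules in a fixed order as they mature. Promyelocytes make the primary (azurophil) granules, with myeloperoxidase and the serine proteases elastase, proteinase 3 and cathepsin G, and in mice Ms4a3 marks granulocyte and monocyte progenitors of that stage. Later cells, from the myelocyte on, make the secondary granules with lactoferrin, cathelicidin and neutrophilic granule protein, and then the abundant cytosolic pair S100A8 and S100A9. A lineage depletion normally removes mature granulocytes through surface markers such as Ly6G and CD11b.

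The promoters shown are those of the genes whose library patterns differ most below: Mpo and Prtn3, present in every library, Elane, the next gene along from Prtn3, and Ngp and Ltf, the later genes with the most of their signal in a single pair of libraries. They are RefSeq promoter windows on build GRCm38.p6, from 250 bases before the start to 50 after it, written 5′ to 3′ on the gene's strand. The windows, all on the plus strand, are chr11:87793534-87793833 for Mpo, chr10:79879417-79879716 for Prtn3, chr10:79886062-79886361 for Elane, chr9:110419558-110419857 for Ngp and chr9:111019042-111019341 for Ltf. Capitals mark matches on either strand to 3 short motifs: TTNNGNAA for the C/EBP type (TTNCNNAA on the other strand), GAGGAA for the PU.1 type (TTCCTC on the other strand) and AACNGNC for the MYB type (GNCNGTT on the other strand). C/EBP proteins, PU.1 and MYB are transcription factors of granulocyte development.
Mpo: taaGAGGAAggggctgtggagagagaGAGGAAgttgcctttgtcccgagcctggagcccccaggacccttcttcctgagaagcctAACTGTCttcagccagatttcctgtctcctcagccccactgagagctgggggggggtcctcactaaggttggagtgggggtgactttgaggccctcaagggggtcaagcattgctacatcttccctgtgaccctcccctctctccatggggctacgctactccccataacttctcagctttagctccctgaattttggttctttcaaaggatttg
Prtn3: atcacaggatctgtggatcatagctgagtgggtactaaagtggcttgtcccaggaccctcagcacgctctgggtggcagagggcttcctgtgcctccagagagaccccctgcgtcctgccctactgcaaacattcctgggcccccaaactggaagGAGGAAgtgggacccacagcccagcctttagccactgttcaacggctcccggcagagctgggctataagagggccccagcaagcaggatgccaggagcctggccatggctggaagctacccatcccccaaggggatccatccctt
Elane: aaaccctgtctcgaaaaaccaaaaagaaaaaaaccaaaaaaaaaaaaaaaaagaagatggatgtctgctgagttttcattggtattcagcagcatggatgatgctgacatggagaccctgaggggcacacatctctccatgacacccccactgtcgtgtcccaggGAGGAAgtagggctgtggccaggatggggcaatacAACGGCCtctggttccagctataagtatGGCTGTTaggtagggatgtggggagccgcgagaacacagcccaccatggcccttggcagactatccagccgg
Ngp: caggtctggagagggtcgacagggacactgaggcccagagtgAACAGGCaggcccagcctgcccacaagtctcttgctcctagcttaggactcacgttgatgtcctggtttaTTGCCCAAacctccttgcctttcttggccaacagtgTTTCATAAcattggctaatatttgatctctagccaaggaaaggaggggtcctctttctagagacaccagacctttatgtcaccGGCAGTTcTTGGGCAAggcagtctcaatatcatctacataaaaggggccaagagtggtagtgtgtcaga
Ltf: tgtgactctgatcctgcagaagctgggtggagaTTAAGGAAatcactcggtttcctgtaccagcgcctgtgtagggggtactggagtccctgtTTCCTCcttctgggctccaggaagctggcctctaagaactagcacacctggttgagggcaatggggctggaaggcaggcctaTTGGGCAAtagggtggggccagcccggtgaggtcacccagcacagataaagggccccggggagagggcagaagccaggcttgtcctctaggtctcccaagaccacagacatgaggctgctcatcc

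GAGGAA was found in 5 of the 5 primary gene promoters and in 2 of the 5 later ones, against 28.3% of 32851 promoters of the same length. For TTNNGNAA the counts were 1 of 5 primary and 4 of 5 later promoters, against 40.7% of all promoters. AACNGNC matched in 3 of 5 primary and 1 of 5 later promoters, against 32.8% of all. In the Prtn3 window the GAGGAA match began 95 bases before the start, and in the neighbouring Elane window it began 85 bases before. The TTGGGCAA match of Ngp began 11 bases before the start and that of Ltf, of the same letters, 75 bases before. Camp had no match to any of these motifs in its window. A match is a description of letters only.

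Total counts were 31109744 to 73414626 per library, with the library labelled KO4, WT2 and WT4 the deepest. Levels below are CPM, counts relative to library size, scaled by the trimmed mean of M values (TMM). The floor of detection was taken as 3 counts, worth 0.0428 to 0.0926 CPM. Floors and the exact intervals of shares cover counting error only, while the intervals of fold changes include the spread between libraries. Trerf1 itself had 13.4, 12.8, 12.1 and 22.1 CPM in KO1, KO2, KO3 and the library labelled KO4, against 29.0, 32.1, 27.1 and 22.3 CPM in WT1 to WT4. The library labelled KO4 was thus at the level of WT4, and the other 3 KO libraries were below every WT library. The groups did not overlap (exact permutation test, two-sided, p = 0.0286, the smallest that 70 assignments can give), at a log2 fold change of -0.87 ± 0.20 (standard error). By edgeR's quasi-likelihood F test, adjusted over all genes by the Benjamini-Hochberg method, the adjusted p of Trerf1 was 0.999. The gate's own gene Il7r, which encodes CD127, averaged 354 ± 45.8 CPM in KO and 324 ± 46.8 CPM in WT (SD, n = 4 each). Xist, the transcript of the inactive X chromosome, was at most 0.613 CPM in KO2, WT2 and WT3 and 447 to 768 CPM in the other 5 libraries, so the libraries were of mixed Xist status within both groups.

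Per length of transcript, Mpo stood far above the other members. Its level, in the authors' deposited TPM, which corrects for transcript length and library size, was 181 ± 56.3 in KO and 172 ± 40.2 in WT (SD, n = 4 each). Prtn3 followed with 34.8 ± 12.5 TPM in KO and 21.2 ± 9.35 TPM in WT, and Ctsg with 14.4 ± 5.45 TPM in KO and 12.2 ± 4.80 TPM in WT. The lowest Mpo library, at 110 TPM, was above the highest Prtn3 library at 46.4 TPM, whereas Prtn3 and Ctsg overlapped in level. Median levels over the 8 libraries went on down through S100a8 at 4.47, S100a9 at 1.20, Elane at 1.12, Camp at 1.04, Ngp at 0.45, Ms4a3 at 0.37 and Ltf at 0.015 TPM. These last 7 genes overlapped with their neighbours in the order, since each was near 0 in some libraries.

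**Figure D1:**
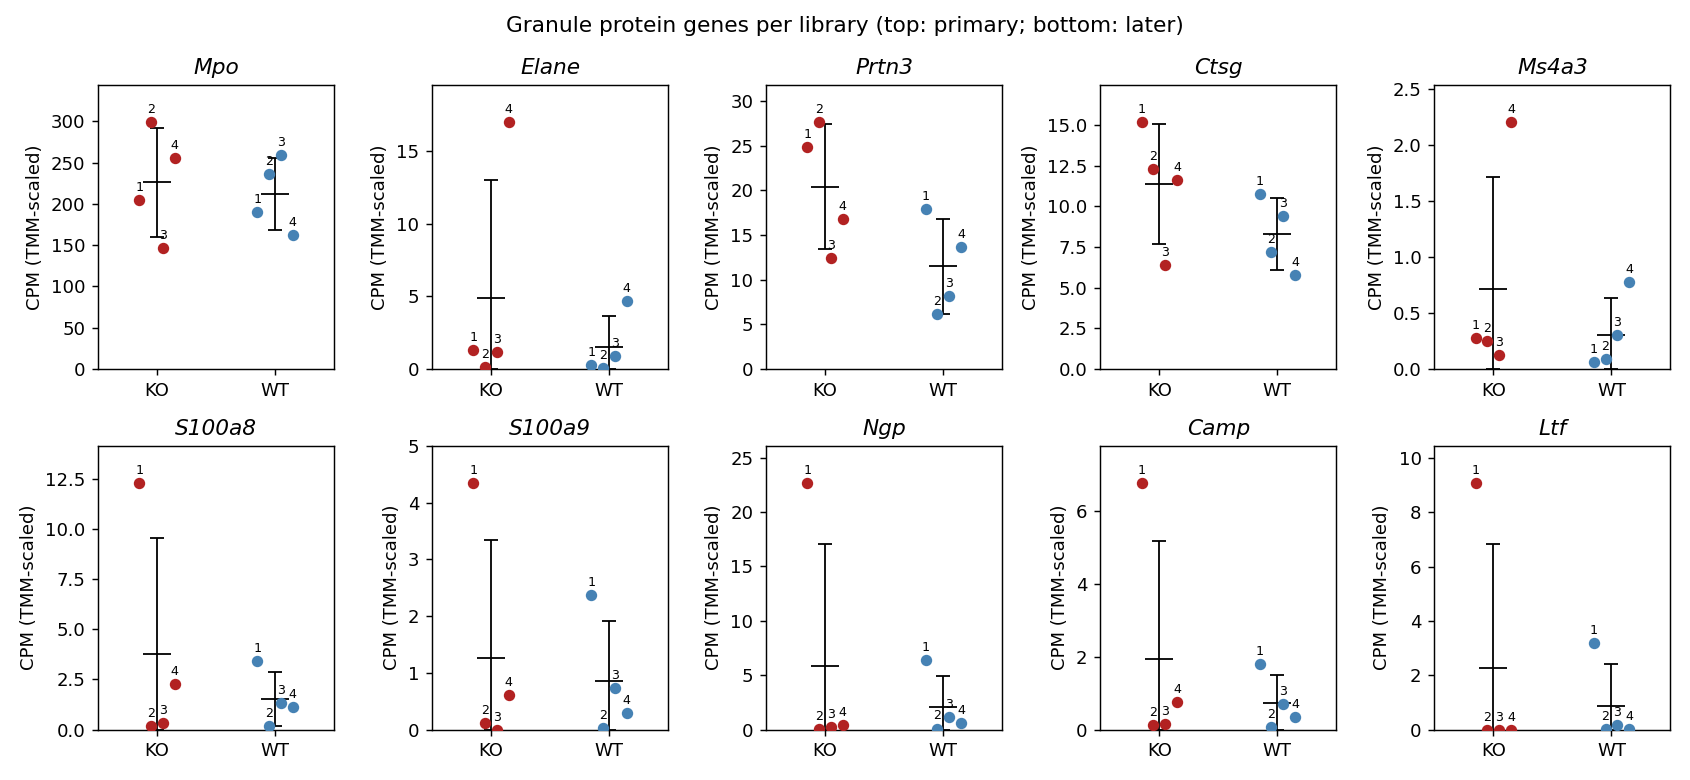
TMM-scaled CPM of each granule gene, 1 panel a gene, with KO left of WT; points are libraries with their number, and the bar is mean ± SD (n = 4), ended at 0 where it would go below. Mpo, Prtn3 and Ctsg stayed within a few fold, Elane and Ms4a3 peaked in the libraries numbered 4, and the 5 later genes peaked in KO1 and WT1.

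Mpo, Prtn3 and Ctsg were found in all 8 libraries. Mpo encodes myeloperoxidase, the haem enzyme that makes hypochlorous acid, and had 205, 299, 146 and 255 CPM in KO1, KO2, KO3 and the library labelled KO4, against 190, 237, 259 and 163 CPM in WT1 to WT4. The highest and the lowest libraries were both KO, and the groups overlapped over most of their range. In bulk RNA, here and below, fewer cells of a type and less RNA per cell cannot be told apart. Mpo averaged 226 ± 65.9 CPM in KO and 212 ± 43.7 CPM in WT (SD, n = 4 each), a log2 fold change of 0.09 ± 0.21 (standard error) with a 95% interval of -0.37 to 0.56. Its adjusted p was 0.999 in edgeR's test (Benjamini-Hochberg), as for every other member that passed the filter.

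Prtn3 encodes proteinase 3, a serine protease and the autoantigen of a form of human vasculitis. It had 24.8, 27.6, 12.4 and 16.8 CPM in KO1, KO2, KO3 and the library labelled KO4, against 17.9, 6.17, 8.16 and 13.6 CPM in WT1 to WT4. KO1 and KO2 lay above all WT libraries, while KO3 and the library labelled KO4 lay within the WT range. Prtn3 averaged 20.4 ± 7.04 CPM in KO and 11.5 ± 5.34 CPM in WT (SD, n = 4 each). Of the members it had the smallest p: the log2 fold change was 0.83 ± 0.34, with a 95% interval of 0.07 to 1.59 and an unadjusted p of 0.0349 in edgeR's test, which did not pass adjustment. An unadjusted p under 0.05 was reached by 322 of the 16352 genes (1.97%), 170 of them (1.04%) higher in KO. Among the 5 libraries with Xist, the KO mean of log2 CPM exceeded the WT mean by 0.14 (3 KO, 2 WT). Among the 3 without it the excess was 1.95 (1 KO, 2 WT), the library without Xist in KO being KO2. With Xist as a covariate in the fit, the log2 fold change of Prtn3 was 0.85. By the same split, with and without Xist, Elane (1.23 and -1.06), S100a8 (0.11 and -1.24) and Camp (0.27 and -0.81) changed sign. The other members did not.

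Ctsg, the gene of cathepsin G, had 15.2, 12.3, 6.39 and 11.6 CPM in KO1, KO2, KO3 and the library labelled KO4, against 10.8, 7.19, 9.41 and 5.80 CPM in WT1 to WT4. KO1, KO2 and the library labelled KO4 were above every WT library, and KO3 was below all but WT4. The log2 fold change was 0.46 ± 0.28 with a 95% interval of -0.15 to 1.07, and the unadjusted p was 0.124 in edgeR's test. KO3 was thus the lowest KO library for Mpo, Prtn3 and Ctsg. Over the 8 libraries the log2 range, highest minus lowest, was 1.03 for Mpo, 1.38 for Ctsg and 2.15 for Prtn3, against a median of 0.79 over all genes tested.

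Elane and Ms4a3 did not follow the other primary genes. Elane, which encodes neutrophil elastase, had 1.28, 0.123, 1.17 and 17.0 CPM in KO1, KO2, KO3 and the library labelled KO4, against 0.290, 0.0910, 0.920 and 4.70 CPM in WT1 to WT4. The libraries numbered 4 were the highest of both groups and held 84.9% of its summed CPM. Its log2 range over the libraries was 6.78. The log2 fold change was 1.70 ± 1.30, unadjusted p = 0.220 in edgeR's test, and the adjusted p was 0.999. It was -0.82 without the library labelled KO4 alone, in which Trerf1 was not low, 3.59 without WT4 alone, and 1.05 without both.

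Ms4a3, which encodes a membrane protein with 4 transmembrane spans, was at 0.279, 0.247, 0.123 and 2.20 CPM in KO1, KO2, KO3 and the library labelled KO4, against 0.0580, 0.0910, 0.307 and 0.771 CPM in WT1 to WT4. The pair numbered 4 again held the 2 highest values, with 72.9% of the summed CPM, and rested on 146 counts (the library labelled KO4) and 54 counts (WT4). The fit without a filter gave a log2 fold change of 1.19 ± 0.82 and an adjusted p of 0.932 in edgeR's test. The value was -0.54 without the library labelled KO4 alone, 2.30 without WT4 alone and 0.54 without both. Of all genes tested, 7.77% had the library labelled KO4 and WT4 as their 2 highest libraries.

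Elane and Prtn3 lie next to each other on chromosome 10, with 3072 bases between the end of Prtn3 (chr10:79710310-79719008, plus strand) and the start of Elane (chr10:79722081-79724049, plus strand) in the coordinates of the count files, GRCm39 by their header. Their TPM ratio varied widely between libraries. Elane was 4.62%, 0.797%, 6.89% and 72.3% of the Prtn3 level in KO1, KO2, KO3 and the library labelled KO4, against 1.61%, 0.724%, 6.77% and 28.4% in WT1 to WT4. The neighbours were therefore within 4-fold of each other only in the libraries numbered 4. Exons of Plppr3 cover 9.18% of Prtn3's exonic bases and those of Gm11505 cover 15.0% of Mpo's, and the default of featureCounts leaves out reads that overlap several genes. No other member shares exonic bases. In the same coordinates Mpo lies at chr11:87684407-87695239 (plus strand), Ctsg at chr14:56337338-56340031 (minus strand) and Ms4a3 at chr19:11606860-11618215 (minus strand).

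Some markers of other cells were highest in the same libraries as Elane and Ms4a3. Of the 9 basophil and mast cell markers listed, 8 were detected. Mcpt8, Prss34, Fcer1a, Ms4a2 and Gata2 had the library labelled KO4 and WT4 as their 2 highest, as did 7.77% of all genes tested. Cma1 was found only in the library labelled KO4, at 0.211 CPM, and Cpa3 and Kit had other libraries among their 2 highest. Their summed level was 153 to 472 CPM in KO and 155 to 386 CPM in WT, highest in the library labelled KO4, then in WT4. Prss34, a basophil protease, had 14.5, 15.0, 75.8 and 249 CPM in KO1, KO2, KO3 and the library labelled KO4, against 13.6, 16.4, 94.4 and 220 CPM in WT1 to WT4. Mcpt8, another basophil protease, had 48.2 CPM in the library labelled KO4, against 36.4 CPM in WT4, and Tpsb2, a mast cell tryptase, was at 0 in every library. The 15 monocyte markers summed to 646 to 1156 CPM in KO and 542 to 1125 CPM in WT, again highest in these libraries. Much of that peak was Nr4a1, at 425 CPM in the library labelled KO4 and 500 CPM in WT4. In the other libraries Nr4a1 had 78.0 to 306 CPM in KO and 113 to 203 CPM in WT. These libraries were the 2 highest for 5 of the 15 markers, against 7.77% of all genes tested, but not for Csf1r, Ly6c2, Ccr2, F13a1 or Cx3cr1. Whether these cells have a part in the Elane and Ms4a3 values was not tested.

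**Figure D2:**
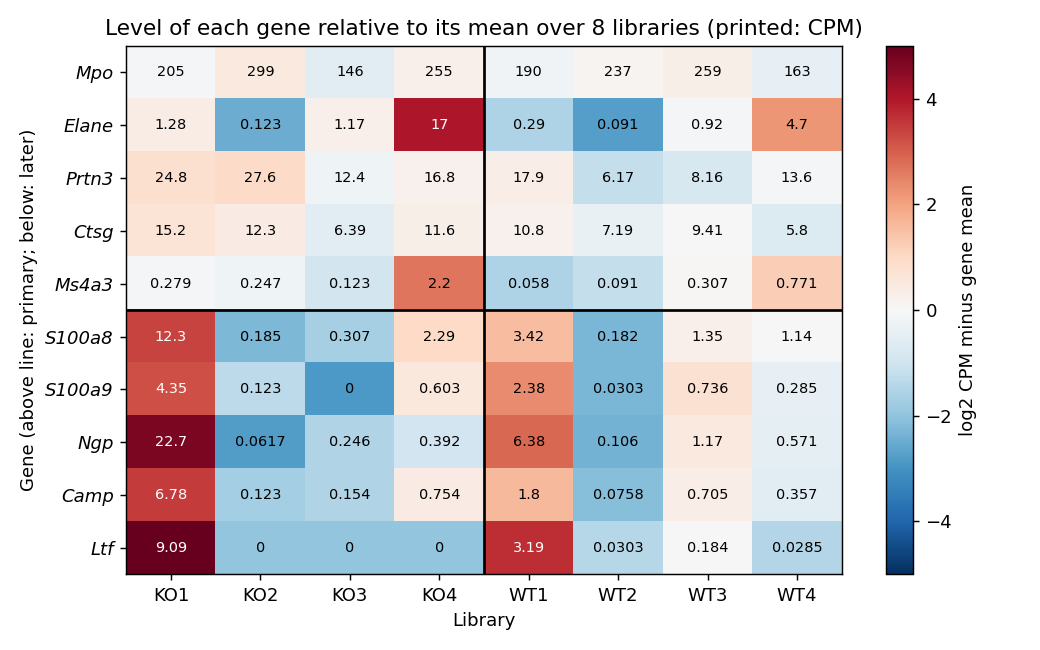
Log2 CPM of each member in each library relative to that gene's mean over the 8 libraries, with the KO columns left of the WT columns. The later genes share high values in KO1 and WT1, Elane and Ms4a3 in the library labelled KO4 and WT4, and Mpo, Prtn3 and Ctsg vary less; the number in each cell is the CPM.

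All 5 later genes had KO1 and WT1 as their 2 highest libraries, an order found in 5.47% of all genes tested. Ngp, whose product is a cystatin-like protein of the secondary granules, had 22.7, 0.0617, 0.246 and 0.392 CPM in KO1, KO2, KO3 and the library labelled KO4, against 6.38, 0.106, 1.17 and 0.571 CPM in WT1 to WT4. KO1 and WT1 held 92.0% of the summed CPM. The log2 fold change was 1.54 ± 1.54, unadjusted p = 0.340 in edgeR's test. It was -3.04 without KO1 alone, 3.30 without WT1 alone and -1.30 without both.

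Ltf encodes lactoferrin, the iron-binding protein that defines secondary granules. It had 9.09 CPM in KO1 and none in KO2, KO3 or the library labelled KO4, against 3.19, 0.0303, 0.184 and 0.0285 CPM in WT1 to WT4. These values stand for 326, 0, 0 and 0 counts in KO and 110, 2, 6 and 2 counts in WT. The 0 counts allow up to 0.0926 CPM in KO2 and 0.0922 CPM in KO3, and 0.0453 CPM for the library labelled KO4. KO1 and WT1 held 98.1% of the summed CPM, and the fit without a filter gave a log2 fold change of 1.45 ± 1.45 with an adjusted p of 0.944 in edgeR's test.

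Camp, the gene of the antimicrobial cathelicidin, had 6.78, 0.123, 0.154 and 0.754 CPM in KO1, KO2, KO3 and the library labelled KO4, against 1.80, 0.0758, 0.705 and 0.357 CPM in WT1 to WT4. Its log2 fold change was 1.45 ± 1.19, unadjusted p = 0.247 in edgeR's test. It was -0.98 without KO1 alone, 2.41 without WT1 alone and -0.026 without both. Ngp (chr9:110248815-110252080, plus strand), Camp (chr9:109676447-109678685, minus strand) and Ltf (chr9:110848339-110871835, plus strand) lie on chromosome 9, Camp 570129 bases from Ngp and 1169653 bases from Ltf in the count files' coordinates.

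S100a8 and S100a9 encode the calcium-binding partners of calprotectin, and lie at chr3:90576285-90577342 (plus strand) and chr3:90599939-90603028 (minus strand), with 22596 bases between them. S100a8 had 12.3, 0.185, 0.307 and 2.29 CPM in KO1, KO2, KO3 and the library labelled KO4, against 3.42, 0.182, 1.35 and 1.14 CPM in WT1 to WT4. S100a9 had 4.35, 0.123, 0 and 0.603 CPM in KO1, KO2, KO3 and the library labelled KO4, against 2.38, 0.0303, 0.736 and 0.285 CPM in WT1 to WT4. Both were lowest in KO2, KO3 and WT2, and the groups overlapped. Their log2 fold changes were 1.33 ± 1.13 for S100a8 and 0.61 ± 1.31 for S100a9, with unadjusted p of 0.265 and 0.651 in edgeR's test. For S100a8 the value was -0.65 without KO1 alone, 2.09 without WT1 alone and 0.12 without both, and for S100a9 it was -1.65 without KO1 alone, 1.92 without WT1 alone and -0.36 without both.

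**Figure D3:**
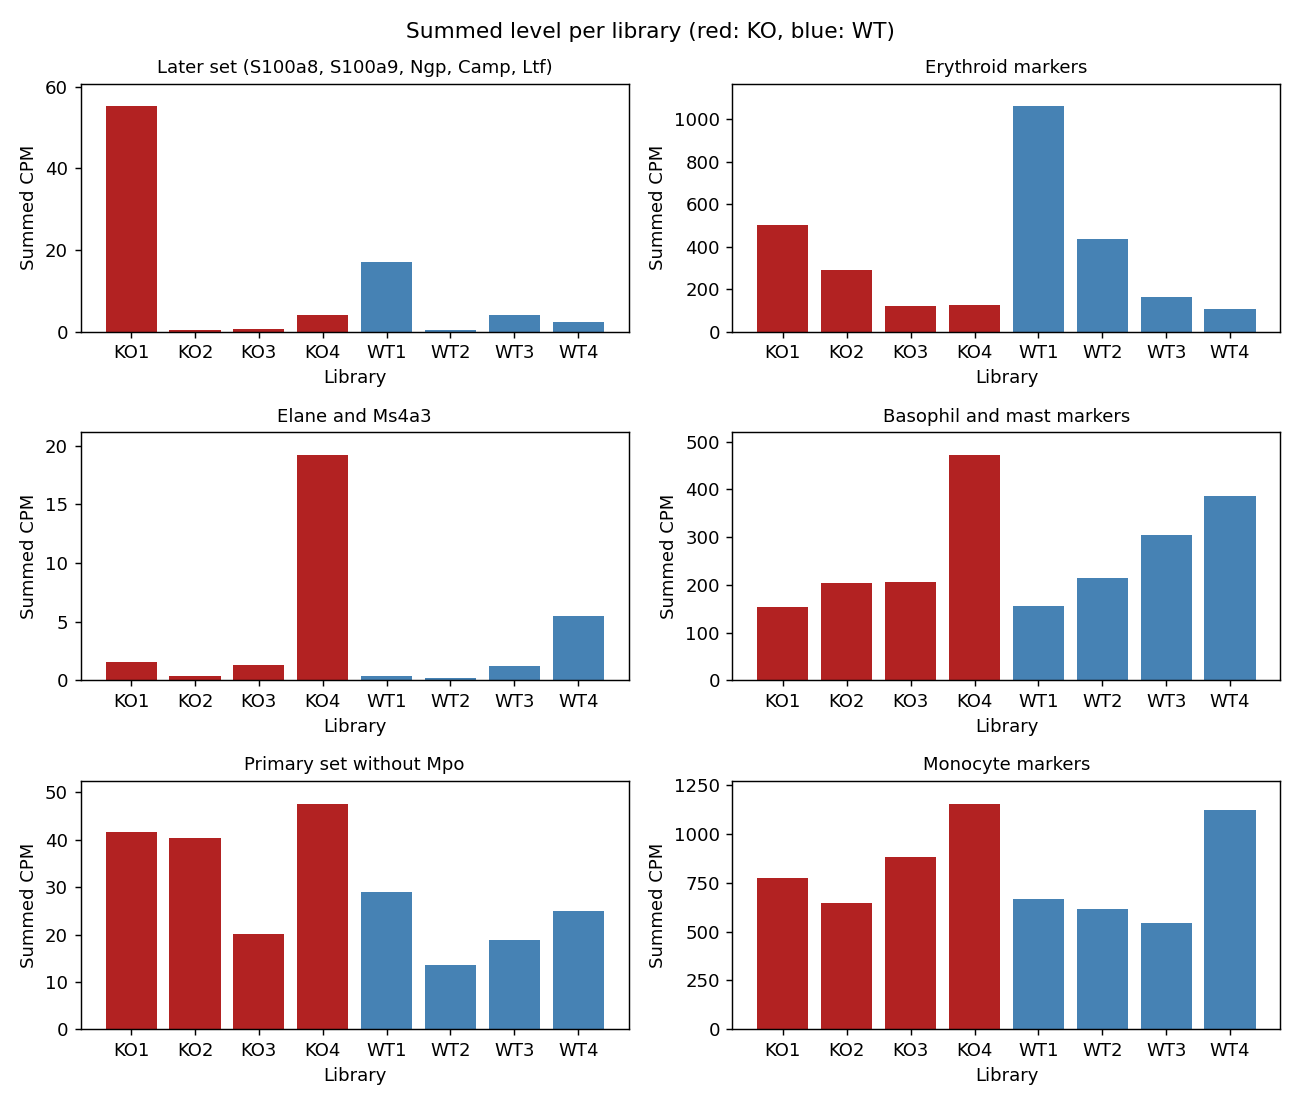
Bars give the summed TMM-scaled CPM per library of the later genes, of Elane and Ms4a3, of the primary genes without Mpo and of erythroid, basophil and mast cell, and monocyte markers, KO in red left of WT in blue. The later sum peaks at 55.2 CPM in KO1 and 17.2 CPM in WT1, the libraries with the 2 highest erythroid sums, and Elane with Ms4a3 at 19.2 CPM in the library labelled KO4 and 5.47 CPM in WT4, those with the highest basophil and mast cell sums.

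The later genes together summed to 55.2, 0.494, 0.707 and 4.04 CPM in KO1, KO2, KO3 and the library labelled KO4, against 17.2, 0.425, 4.14 and 2.38 CPM in WT1 to WT4. They made up 18.3% of the summed CPM of all 10 members in KO1 and 7.27% in WT1, and 0.145% to 1.47% in the other 6 libraries. The primary genes summed to 246, 340, 166 and 303 CPM in KO1, KO2, KO3 and the library labelled KO4, against 219, 250, 278 and 188 CPM in WT1 to WT4, mostly Mpo. The primary sum and the later sum thus did not share their highest libraries. KO1 exceeded WT1 by a ratio of 3.59 for S100a8, 1.83 for S100a9, 3.56 for Ngp, 3.77 for Camp and 2.85 for Ltf.

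The mix of later genes also differed between libraries. Ngp made up 41.1% of the 1980 later-gene counts in KO1 and 37.2% of 592 in WT1, but 9.70% of 268 in the library labelled KO4, against 24.0% of 167 in WT4. Ltf made up 16.5% in KO1 (exact Clopper-Pearson 95% interval 14.9% to 18.2%) and 18.6% in WT1 (15.5% to 22.0%). It made up 0 of 268 counts in the library labelled KO4, for which the upper end of the same exact interval is 1.37% and the floor of 3 counts is 1.12%, and 1.20% in WT4 (0.145% to 4.26%). S100a8 had the largest share in all 6 libraries other than KO1 and WT1: 37.5%, 43.5% and 56.7% in KO2, KO3 and the library labelled KO4, against 42.9%, 32.6% and 47.9% in WT2, WT3 and WT4, as opposed to 22.3% in KO1 and 19.9% in WT1. In KO2, KO3 and WT2 these shares rest on 16, 23 and 28 counts. Where both mates of a pair are counted, these intervals are narrower than the number of fragments would give.

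In KO1 and WT1, markers of red cells stood beside the later genes. Of the 12 erythroid markers, 8 had KO1 and WT1 as their 2 highest libraries, as did 5.47% of all genes tested. The markers summed to 504, 288, 121 and 127 CPM in KO1, KO2, KO3 and the library labelled KO4, against 1061, 434, 162 and 105 CPM in WT1 to WT4. The order of the pair was the other way round, with the erythroid sum higher in WT1 and the later-gene sum higher in KO1. Hbb-bs, an adult beta globin, had 80.5 CPM in KO1 and 244 CPM in WT1, and Car2, carbonic anhydrase 2, had 221 CPM in KO1 and 347 CPM in WT1. Whether the cells behind these markers have a part in the later-gene values was not tested.

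The defining surface marker of mature neutrophils was at or near 0. Ly6g had 0.0905 CPM in the library labelled KO4 and 0 in the other KO libraries, against 0.0307 CPM in WT3, 0.0143 CPM in WT4 and 0 in WT1 and WT2. Cebpe, the transcription factor that mice need for secondary granules, had 10 counts over all 8 libraries and was at 0 in KO1 and WT1, where the later genes were highest. Of the 16 mature neutrophil surface genes, 15 were detected and none had KO1 and WT1 as its 2 highest. Of all genes tested 5.47% did, so a count of 0 among 15 is near that share. Fpr1, one of them, was found only in KO1, at 0.502 CPM (18 counts). Csf3r, the receptor of granulocyte colony-stimulating factor, averaged 21.6 ± 5.75 CPM in KO and 18.0 ± 3.29 CPM in WT (SD, n = 4 each), and Fpr2, a formyl peptide receptor, was at 0 in every library.

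In the comparison of KO with WT, none of the 8 tested members passed an adjusted p of 0.05 in edgeR's test, where 0 of 16352 genes (0%) did. DESeq2 and limma-voom with library quality weights also called 0 genes. At an unadjusted p under 0.05 DESeq2 had 565 of 29987 genes and limma-voom 891 of 16352. The groups overlapped in CPM for all 10 members, and 1.28% of all genes tested had groups that did not overlap. All 4 tested primary genes and all 4 tested later genes had a higher estimate in KO, as did 51.7% of all genes. The median log2 fold change was 0.65 for the 4 primary genes and 1.39 for the 4 later genes, against 0.01 for all genes. The later median was -1.32 without KO1 alone, 2.25 without WT1 alone and -0.19 without both. The primary median was 0.24 without the library labelled KO4 alone and 0.66 without it and WT4.

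**Figure D4:**
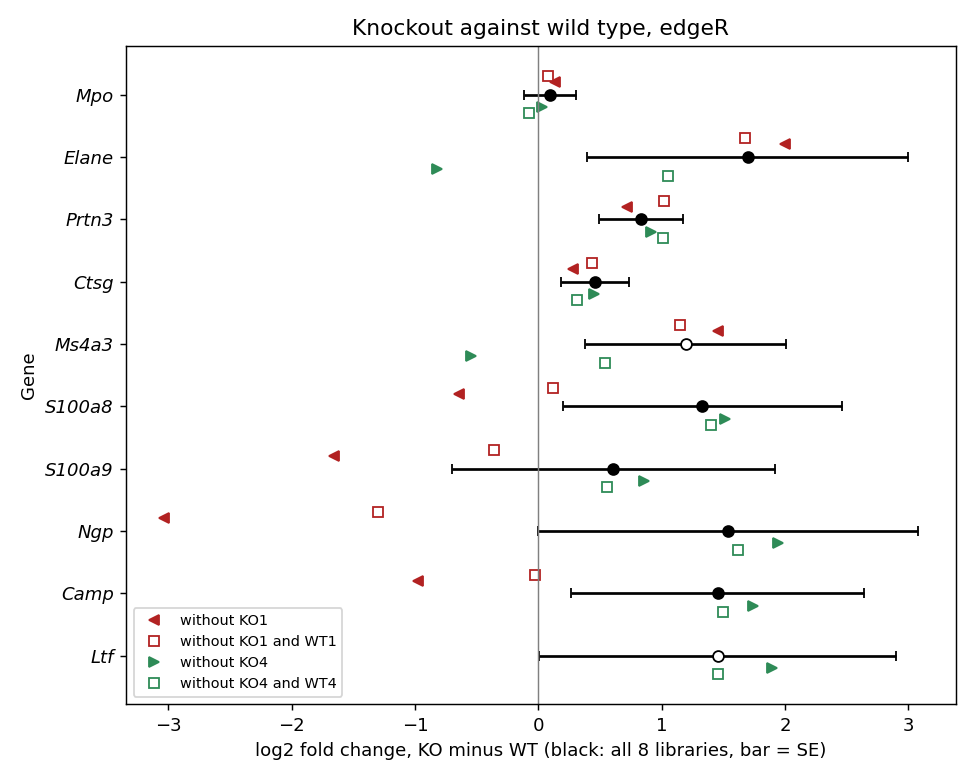
Log2 fold change of KO over WT for each member with its standard error (black), and the same value without KO1 or the library labelled KO4 alone (red and green triangles) or without KO1 and WT1 or the libraries numbered 4 together (red and green open squares); open circles mark Ms4a3 and Ltf, fitted without the filter on low counts, and Ltf without KO1 is not drawn. Prtn3 and Ctsg stay above 0 in all of these fits, while Elane and Ms4a3 are below 0 without the library labelled KO4 alone but above 0 without it and WT4, and S100a9, Ngp and Camp are below 0 without KO1 with or without WT1.

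Other genes of the granule programme gave no call in either direction. Among 19 further primary granule and processing genes, all tested, 12 had a higher and 7 a lower estimate in KO, with a median log2 fold change of 0.03. Plac8, a small protein of myeloid and lymphoid progenitors, averaged 1606 ± 103 CPM in KO and 1456 ± 136 CPM in WT (SD, n = 4 each). Srgn, the granule proteoglycan serglycin, averaged 448 ± 30.3 CPM in KO and 433 ± 52.4 CPM in WT. Ctsc, the protease that activates elastase, proteinase 3 and cathepsin G, averaged 157 ± 15.2 CPM in KO and 155 ± 28.9 CPM in WT. These genes were abundant in a gate where Elane was at most 1.28 CPM in 6 of the 8 libraries. Which cells of the gate made their transcripts was not tested. The protease inhibitor and lysosomal list had 5 higher and 1 lower of 6, with a median of 0.11, and Serpinb1a, an inhibitor of neutrophil serine proteases, averaged 201 ± 30.8 CPM in KO and 189 ± 44.8 CPM in WT.

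Of 26 other later granule and neutrophil genes, 15 were tested, 10 with a higher and 5 with a lower estimate in KO and a median of 0.17. KO1 and WT1 were the 2 highest libraries for 7 of the 25 detected, against 5.47% of all genes tested, and Olfm4 was at 0 throughout. Chil3, a chitinase-like protein of maturing neutrophils, had 4.85, 0.123, 0 and 0.664 CPM in KO1, KO2, KO3 and the library labelled KO4, against 1.28, 0.698, 0.245 and 0.400 CPM in WT1 to WT4. Lcn2, the gene of the siderophore-binding lipocalin 2, reached 1.28 CPM in KO1 and 0.464 CPM in WT1 and at most 0.0905 CPM elsewhere. By contrast the NADPH oxidase gene Cybb, which other myeloid cells and B cells express too, was at 457 ± 127 CPM in KO and 435 ± 176 CPM in WT (SD, n = 4 each).

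Mmp25, a membrane-anchored matrix metalloproteinase of neutrophils, had the smallest p of that list and was named after its values were seen. It had 1.51, 2.34, 1.44 and 3.71 CPM in KO1, KO2, KO3 and the library labelled KO4, against 0.812, 1.18, 0.460 and 1.06 CPM in WT1 to WT4. Every KO library was above every WT library. The log2 fold change was 1.35 ± 0.41, with an unadjusted p of 0.00708 and an adjusted p of 0.999 in edgeR's quasi-likelihood test.

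Of the transcription factors of granulocyte development, 13 were tested, 5 with a higher and 8 with a lower estimate in KO, a median of -0.02 and no call. Gfi1, a repressor needed for neutrophil development in mice, averaged 2.54 ± 0.798 CPM in KO and 2.38 ± 1.26 CPM in WT (SD, n = 4 each). Cebpa, which opens the granulocyte programme, averaged 2.27 ± 0.413 CPM in KO and 2.31 ± 1.20 CPM in WT. Irf8, which favours dendritic cells and monocytes over granulocytes, averaged 3643 ± 403 CPM in KO and 3598 ± 818 CPM in WT. All 3 were present in every library.

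The marker lists of other cells had no call either. Estimates were higher in KO for 10 of 11 tested monocyte markers (median 0.23), 2 of 4 eosinophil markers (0.55), 3 of 7 basophil and mast cell markers (-0.05), 0 of 12 erythroid markers (-1.04) and 8 of 11 lymphoid gate markers (0.08). Among monocyte markers Csf1r, the receptor of macrophage colony-stimulating factor, averaged 54.9 ± 13.6 CPM in KO and 36.1 ± 12.4 CPM in WT, at an unadjusted p of 0.0397 in edgeR's test. The eosinophil granule gene Prg2 had 9.20, 0.370, 2.40 and 9.93 CPM in KO1, KO2, KO3 and the library labelled KO4, against 0.464, 0.273, 3.43 and 3.64 CPM in WT1 to WT4. Prg2 was thus high in KO1 and the library labelled KO4 but not in WT1.

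The genes most like each set across the libraries were found among 11616 genes with a mean of at least 1 CPM, by Pearson's r of log2 CPM with the log2 sum of the set over the 8 libraries, which share depth and composition with it. For the primary sum these were Alpl (r = 0.958), Il20rb, Tmem141, Zfp532, C1ra, Acot1, Atp2b4 and Epha1 (0.906). For the later sum they were Pgam2 (0.950), Iglc1, Picalm, Ighv9-3, Pou6f1, Chst3, Iglc2 and Bcar3 (0.903), with the sum itself highest in KO1 and WT1. Immunoglobulin lambda constant and heavy variable segments gave 3 of these 8 names.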

How the data were processed

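RNA of 4 KO and 4 WT libraries was sequenced; the submitters' processing notes name STAR 2.6.0a, Picard 2.19, featureCounts 1.6.4 and RSEM 1.3.1. The authors deposited whole-number read counts per gene, made per the file headers with featureCounts, whose command shows only an annotation, an output and 4 threads; under its defaults mates are counted singly, strand is ignored, and reads on several genes are dropped. RSEM expected counts, deposited as well, were used, rounded, as an alternative, and the deposited TPM to compare levels between genes. The ratio of total counts to total expected counts was 3.67 to 4.00. The notes name mm10, the header GRCm39; 0 of 10 members shared both ends with GENCODE M21 of GRCm38.

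Identifiers were matched to symbols by the reference table (97.1%). Counts of all 8 libraries were fitted in R 4.3.3 with edgeR 4.0.16 (filterByExpr, TMM, quasi-likelihood F test without covariate, Benjamini-Hochberg over 16352 genes, threshold 0.05). Standard errors are the fold change divided by the square root of F, and log2 CPM used a prior count of 3. Alternatives changed the scaling (RLE factors, or only library size), the filter (none, or a mean CPM of 1), the tool (DESeq2 1.42.0, limma 3.58.1 voom with quality weights) or the counts (RSEM), added a replicate block or an Xist covariate, or used fewer libraries: each library left out, the libraries numbered 4 left out together and, chosen after seeing the data, those numbered 1. The steps were tested on simulated data. Members, lists and tests were chosen with earlier results of these data known. Named are the members, Trerf1, 6 granulocyte genes by name, genes of each list taken from the 4 with the highest mean CPM, and the 8 genes most like each sum; Ctsc, Xist, Mmp25, Chil3, Lcn2, Csf1r and the genes given at 0 or beside a library pattern were named after their values were seen. A gene that the naming rule covers is not reported here.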

Additional observations from a re-analysis of the deposited data

Results flagged for a closer look

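Of the 20 groups formed by 10 members in KO and WT, 8 held a library whose gap to its nearest neighbour exceeded Dixon's 95% critical value for 4 libraries. For normally distributed values chance flags about 1 in 20. The ratio was taken on unlogged CPM, often near 0, so that rate need not hold here. Among KO libraries, KO1 stood apart for Ngp at 22.7 CPM (next 0.392), Ltf at 9.09 CPM (next 0), Camp at 6.78 CPM (next 0.754) and S100a9 at 4.35 CPM (next 0.603). The library labelled KO4 stood apart for Elane at 17.0 CPM (next 1.28) and Ms4a3 at 2.20 CPM (next 0.279). Among WT libraries, WT1 stood apart for Ngp at 6.38 CPM (next 1.17) and Ltf at 3.19 CPM (next 0.184). The members share libraries, so these 8 are not independent of each other.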

How the results depend on the processing

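In all 19 alternatives Prtn3 and Ctsg kept a positive log2 fold change, and no member passed the threshold in any of those that gave it a value. Leaving out 1 library at a time gave ranges of 0.62 to 1.12 for Prtn3, 0.28 to 0.66 for Ctsg, -0.070 to 0.25 for Mpo, -0.82 to 3.59 for Elane, -0.54 to 2.30 for Ms4a3, -0.65 to 2.09 for S100a8, -1.65 to 1.92 for S100a9, -3.04 to 3.30 for Ngp, -0.98 to 2.41 for Camp, -8.31 to 5.02 for Ltf and -1.32 to 2.25 for the later median. For Elane and Ms4a3 the ends were without the library labelled KO4 and without WT4, and for the later genes without KO1 and without WT1; fitted Ltf values against libraries at 0 are no bounds. With limma-voom Mpo was -0.13, S100a9 -1.13 and Ngp -0.35. With Xist as covariate S100a9 was -0.015, Elane 0.57, Ngp 0.53 and the later median 0.49, while Prtn3 was 0.85 and Ctsg 0.47. Without WT4 and the library labelled KO4 together, Elane was 1.05, Ms4a3 0.54, Mpo -0.078, 12 genes were called lower and Trerf1 was -1.20 (adjusted p = 0.0473). Without KO1 and WT1 together, chosen after seeing the data, S100a9 was -0.36, Ngp -1.30, Camp -0.026 and Ltf -4.98. With the replicate number as a block, 0 genes were called (634 at an unadjusted p under 0.05, against 322), Elane was 1.32 ± 0.37 (unadjusted p = 0.00608, adjusted p = 0.936, edgeR), Prtn3 0.87 ± 0.28 (unadjusted p = 0.0139, adjusted p = 0.936), Ngp -0.11, Ltf -0.088 and the later median 0.30. Elane and Prtn3 were higher in KO than in the WT library of the same number in 4 of 4 cases. The share of all genes with 4 of 4 was not counted. For Elane, number 2 rests on 4 counts in KO2 (0.123 CPM) against 6 in the deeper WT2 (0.0910 CPM), near the floor. Number 4 is the library labelled KO4, in which Trerf1 was not low. Libraries sharing a number had deviations correlated at 0.36, 0.31, -0.03 and 0.12, and those of different numbers at -0.25 to 0.20. Of the former, 1 of 4 was under the 0.1 asked of every pair, so the numbers were not taken to pair them. The p-values of the fit without a block therefore include any spread between numbers. The causes were not tested. Elane, S100a9, Ngp and Camp had no value with RSEM counts, being under the filter there. Depth limits the 7 members other than Mpo, Prtn3 and Ctsg, each of which had 0 to 10 counts in 2 or more libraries.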
